A study of Mus musculus with 40 samples.

Results

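Cholesterol and fatty acid synthesis was followed through 33 listed genes in mouse macrophages that met bacterial lipopolysaccharide (LPS) with or without an intact Otulin gene. The genes were chosen by pathway, with earlier results of these data known. The list holds 8 enzymes of the mevalonate arm and 11 enzymes from squalene to cholesterol. It also holds 5 genes of SREBP control and sterol transfer, and 9 genes of fatty acid synthesis, elongation and desaturation. The 33 were part of the 57010 gene identifiers in the table. The low-count filter over all libraries, which 12522 genes passed, kept all 33. Their mean levels over all libraries ran from 8.27 (Dhcr7) to 511 (Hmgcs1) CPM, the count relative to the library's composition-corrected size.

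Sterol synthesis builds isoprene units from acetyl-CoA through mevalonate, joins them to squalene and closes and trims the rings to cholesterol, while fatty acid synthesis turns the same acetyl-CoA into palmitate and its longer and unsaturated products. Most of these enzymes are targets of the sterol regulatory element-binding proteins (SREBPs), encoded by Srebf1 and Srebf2, which SCAP carries from the endoplasmic reticulum for cleavage and INSIG proteins hold back when sterol is plentiful. In macrophages, Toll-like receptor signalling is known to remodel both pathways.

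The cells were primary macrophages grown from mouse bone marrow with medium conditioned by L929 cells and exposed to 500 ng/ml of ultrapure LPS from Salmonella minnesota. Cells of OtulinFL/FL mice, without Cre, are called WT here, and cells of OtulinFL/FL LysMCreTg/WT mice, in which Cre is driven by the LysM promoter active in myeloid cells, are called KO. Both genotypes carried the floxed allele. Each genotype was sampled before LPS (0 h) and at 3, 6, 12 and 24 h, with 4 biological replicates per group and 40 libraries in all. Because no group carried Cre without the floxed allele, Cre itself and the loss of Otulin cannot be told apart, and the labels do not say whether a replicate number marks 1 animal at all times.

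RNA was read as 3′ tags, 1 tag near the 3′ end of each polyadenylated transcript, so longer genes do not gather more counts. Library totals ran from 3615155 to 6829303 counts. The scaling factors that correct for composition (TMM) ran from 1.22 to 1.29 at 0 h and from 0.827 to 0.901 at 6 h. Scaled by library totals alone, the median change of all genes tested was therefore -0.59 in WT and -0.67 in KO at 6 h on the log2 scale, in place of -0.09 and -0.11. A gene is called changed where the adjusted p (edgeR's quasi-likelihood test, Benjamini-Hochberg over all genes tested) was below 0.05. Changes below are relative to the TMM scale. Macrophage markers were present: all 8 (Adgre1, Csf1r, Cd68, Itgam, Mertk, Fcgr1, Cd14 and Lyz2) reached 1 CPM in every group, and their summed level ran from 3746 to 7945 CPM over the libraries. Of 7 markers of adipocytes and stromal cells, which are rich in these same enzymes, none reached 1 CPM in any group and Lep had no count in any library. KO replicate 3 and WT replicate 4 stood apart by sex-linked RNA at all 5 times: relative to library totals, 4 Y-linked genes summed to 163 to 319 CPM there and to at most 0.498 CPM in the 30 other libraries, and Xist to at most 2.18 CPM against 228 to 709 CPM. Otulin tags, at 41.1 ± 2.85 CPM (SD, n = 4) in WT and 35.9 ± 6.05 CPM in KO at 0 h, were not called different at any time. At 24 h the KO libraries held 45.2 to 51.7 CPM and the WT libraries 27.6 to 37.1 CPM (adjusted p = 0.0704, edgeR). Which exons were removed is not given, so 3′ tags do not check the genotype labels.

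Promoters are shown because so many of the members moved together. RefSeq windows (GRCm38.p6, 250 bases before to 50 after the start) were matched for 26 of the 33 members; Fads1, Fdps, Stard4, Scd2, Fdft1, Scd1 and Sqle had no entry. The 200 bases before the start are printed 5′ to 3′ in the direction of transcription for the 3 members that held the letters TCACNCCA, 1 written form of the sterol response element, (Hmgcs1, Srebf2 and Msmo1) and for 3 members with large falls (Idi1, Cyp51 and Fasn). Capitals mark that element and the inverted CCAAT box, ATTGG, or its complement CCAAT.
Hmgcs1: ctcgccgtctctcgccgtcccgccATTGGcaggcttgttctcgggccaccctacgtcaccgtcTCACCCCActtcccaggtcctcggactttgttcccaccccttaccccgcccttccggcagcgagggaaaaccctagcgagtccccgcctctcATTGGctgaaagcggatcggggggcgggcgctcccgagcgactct
Srebf2: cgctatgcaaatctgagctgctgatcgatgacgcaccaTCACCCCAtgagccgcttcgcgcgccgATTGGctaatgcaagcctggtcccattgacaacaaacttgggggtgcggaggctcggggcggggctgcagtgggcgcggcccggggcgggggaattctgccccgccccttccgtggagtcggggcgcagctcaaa
Msmo1: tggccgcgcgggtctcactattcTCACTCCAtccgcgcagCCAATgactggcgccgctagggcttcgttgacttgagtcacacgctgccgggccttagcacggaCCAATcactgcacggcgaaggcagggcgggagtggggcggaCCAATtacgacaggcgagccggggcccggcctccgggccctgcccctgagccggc
Idi1: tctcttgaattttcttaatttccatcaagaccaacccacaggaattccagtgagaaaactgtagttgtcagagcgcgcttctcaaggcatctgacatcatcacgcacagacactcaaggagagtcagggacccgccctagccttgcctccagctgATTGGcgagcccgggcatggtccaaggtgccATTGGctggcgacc
Cyp51: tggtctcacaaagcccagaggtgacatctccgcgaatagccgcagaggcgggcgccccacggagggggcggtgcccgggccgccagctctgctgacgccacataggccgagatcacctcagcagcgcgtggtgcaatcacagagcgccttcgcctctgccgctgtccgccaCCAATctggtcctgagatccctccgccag
Fasn: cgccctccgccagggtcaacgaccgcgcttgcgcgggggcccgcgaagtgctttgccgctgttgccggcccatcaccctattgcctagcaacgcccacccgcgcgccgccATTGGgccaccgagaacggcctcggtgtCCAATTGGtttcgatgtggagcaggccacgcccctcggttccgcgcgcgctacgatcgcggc
These windows lie at chr13:119690151-119690350 (plus strand), chr15:82147069-82147268 (plus strand), chr8:64733579-64733778 (minus strand), chr13:8885406-8885605 (plus strand), chr5:4104698-4104897 (minus strand) and chr11:120824548-120824747 (minus strand). In Hmgcs1 the element TCACCCCA begins 137 bases before the start, in Srebf2 162 bases before it, and in Msmo1 TCACTCCA begins 177 bases before it. The bases just after the Hmgcs1 start matched no transcript of that gene in GENCODE vM21, so its distance holds for the RefSeq start only. Those after the other starts shown here did match. Each of the 6 windows holds at least 1 inverted CCAAT box, and in Fasn 2 of them share letters in the run CCAATTGG.

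Over the full windows of 300 bases, searched on both strands, ATTGG was present in 21 of the 26 members (80.8%), against 43.1% of 8953 other genes expressed in these cells and 41.1% of all 27025 genes with an entry. Scap, Acat2, Acaca, Elovl6 and Fads2 had an entry without it. All of these were called lower at 24 h, as were most members with it. TCACNCCA was present in 3 of 26 (11.5%), against 4.53% and 4.97%. The GC box GGGCGG was present in 20 of 26 (76.9%), against 68.6% and 38.2%, and the E-box CACGTG in 6 of 26 (23.1%), against 12% and 8.09%. The members' windows had a median GC content of 61.3%, against 60.7% in the other expressed genes. These are counts of letters in a window, without a test, and say nothing of binding.

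After LPS most of the 33 genes fell, and the most were lower at 24 h. In WT, 28 members were lower at 24 h than at 0 h and only Ggps1 was higher, where 35.4% of all genes tested were called lower and 34.5% higher. In KO, 28 were lower and Ggps1 was again the only one higher, where 33.0% and 32.8% of all genes were called. The members' median log2 change at 24 h was -1.10 in WT and -1.27 in KO, while the median of all genes tested was -0.02 and -0.01. The same 28 members were called lower in both genotypes at 24 h. The members not called at 24 h in either genotype were Mvd, Pmvk, Tm7sf2 and Srebf1. In bulk RNA, fewer cells of a type and less RNA per cell cannot be told apart.

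The earlier times showed fewer falls. In WT, 16 members were lower and 2 higher at 3 h, 19 lower and 3 higher at 6 h, and 21 lower and 1 higher at 12 h. All genes tested were called lower at 28.0%, 37.1% and 35.9% and higher at 26.6%, 31.0% and 32.3% at these times. In KO the counts were 15 lower and 2 higher at 3 h, 22 lower and 3 higher at 6 h, and 27 lower and 1 higher at 12 h, with all genes at 25.7%, 36% and 34.0% lower and 22.9%, 28.7% and 30.7% higher. With RLE size factors the KO counts at 6 h became 16 lower and 5 higher. RLE factors and DESeq2 each lost the KO calls of Fdps, Cyp51, Hsd17b7, Insig1, Acly and Acaca at 6 h. Both also lost those of Mvk, Mvd, Nsdhl and Acaca in KO at 12 h. In WT both lost Mvk, Fdps and Nsdhl at 6 h and Acat2, Msmo1 and Acly at 12 h. Cyp51 at 3 h was lost with both in each genotype. The members' median log2 change in WT was -0.25, -0.29 and -0.41 at 3, 6 and 12 h, and in KO -0.29, -0.34 and -0.71, while the median of all genes stayed between -0.11 and -0.04. No member was called in opposite directions in the 2 genotypes at any time. With library totals as the only scaling, no member was called higher than at 0 h at any time, and 27 to 32 members were called lower in each comparison with 0 h.

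**Figure D1:**
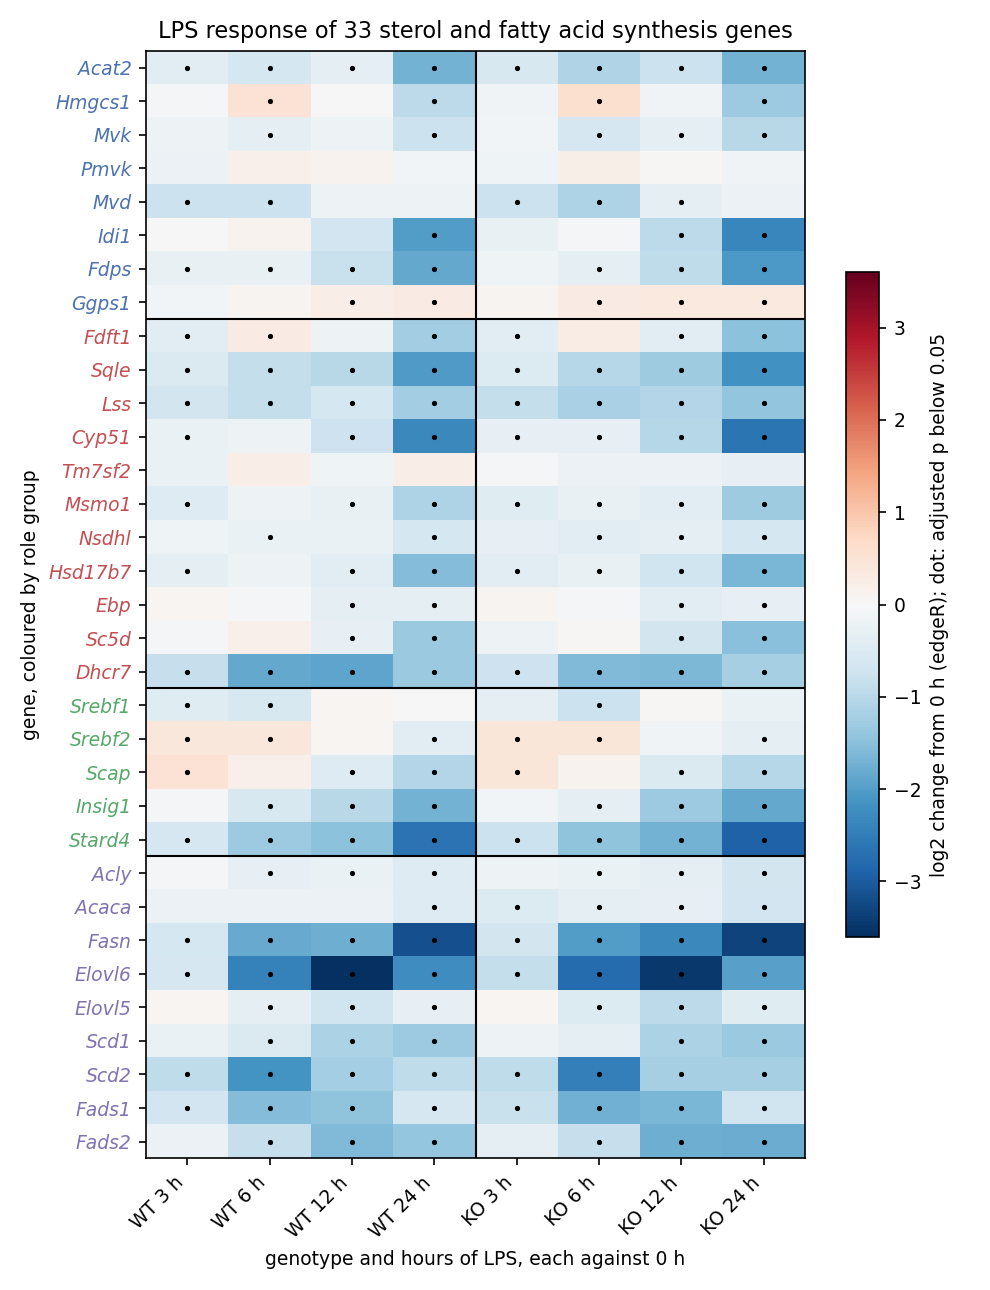
Log2 change from 0 h (colour, edgeR, TMM scale) of the 33 members at 3, 6, 12 and 24 h of LPS in WT (left) and KO (right), with genes ordered and coloured by role group; a dot marks an adjusted p below 0.05. In the 24 h columns 28 members of each genotype are blue with a dot, and Ggps1 is the only called rise.

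In the mevalonate arm 4 of 8 genes were lower and 1 higher at 6 h in WT, and 5 were lower and 1 higher at 24 h. Summed over its 8 genes, the level in WT was 1077 ± 67.1 CPM (SD, n = 4) at 0 h, 1254 ± 92.3 CPM at 6 h and 559 ± 55.7 CPM at 24 h. In KO it was 1027 ± 95.2 CPM, 1183 ± 64.2 CPM and 451 ± 45.8 CPM. Hmgcs1 weighs most in these sums, and its 6 h mean was 144% of that at 0 h in WT and 151% in KO. These levels are on the TMM scale, and with library totals alone Hmgcs1 was not called higher at 6 h in either genotype. At 6 h Acat2, Mvk, Mvd and Fdps were below their 0 h means in both genotypes, and Pmvk and Ggps1 were above. The 5 that were lower at 24 h in WT were Acat2, Hmgcs1, Mvk, Idi1 and Fdps. The median log2 change of the arm at 24 h was -0.85 in WT and -1.15 in KO.

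Hmgcs1, the cytosolic HMG-CoA synthase at the entry to the pathway (ENSMUSG00000093930), held the highest level of the arm. Its WT libraries, in the order of replicates 1 to 4 as in all lists below, read 523, 499, 585 and 564 CPM at 0 h, 521, 476, 551 and 569 at 3 h and 748, 722, 855 and 806 at 6 h. They then read 562, 496, 568 and 590.0 at 12 h and 287, 245, 294 and 308 at 24 h. All 4 values at 6 h lay above, and all 4 at 24 h below, the range at 0 h. The KO libraries read 378, 535, 517 and 602 CPM at 0 h, 441, 504, 438 and 479 at 3 h and 730.0, 815, 801 and 718 at 6 h. They read 499, 551, 497 and 350.1 at 12 h and 199, 230.1, 189 and 207 at 24 h, again highest at 6 h and lowest at 24 h. The WT log2 change was 0.52 (SE 0.080, adjusted p = 2.51e-06) at 6 h and -0.94 (SE 0.082, adjusted p = 1.41e-10) at 24 h, and in KO 0.57 (SE 0.13, adjusted p = 3.04e-04) and -1.302 (SE 0.13, adjusted p = 4.02e-09). With library totals alone the 6 h change was 0.017 in WT and 0.018 in KO and was not called.

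Idi1, the isopentenyl diphosphate isomerase, varied widely between replicates. The WT libraries read 169, 147, 187 and 159.8 CPM at 0 h, 193, 223, 139.9 and 95.7 at 3 h and 163, 254, 219.6 and 94.2 at 6 h. They read 152, 66.0, 150.3 and 43.3 at 12 h and 55.4, 35.2, 42.9 and 30.2 at 24 h. The values at 3, 6 and 12 h overlapped the range at 0 h, and those at 24 h lay below it. The KO libraries read 215, 134, 159 and 166 CPM at 0 h, 153, 139, 116 and 162 at 3 h and 163, 121, 214 and 164 at 6 h. They read 101, 72.7, 25.6 and 157 at 12 h and 41.8, 23.1, 26.7 and 39.9 at 24 h. The log2 change at 24 h was -2.02 (SE 0.40, adjusted p = 3.30e-04) in WT and -2.34 (SE 0.37, adjusted p = 3.63e-05) in KO, with the widest SE of any member at that time in each genotype.

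Fdps, which makes farnesyl diphosphate, went in WT from 116 ± 11.1 CPM at 0 h to 66.9 ± 7.25 CPM at 12 h and 32.2 ± 6.11 CPM at 24 h, a log2 change of -1.85 (SE 0.10). Acat2, the cytosolic acetoacetyl-CoA thiolase, changed by -1.70 (SE 0.14) and Mvk, mevalonate kinase, by -0.77 (SE 0.14) at 24 h. Mvd, the decarboxylase that ends the mevalonate steps, was called lower in WT at 3 and 6 h but not later: its log2 change in WT was -0.77 (SE 0.18, adjusted p = 0.00140) at 3 h, -0.76 (SE 0.18, adjusted p = 0.00124) at 6 h and -0.18 (SE 0.18, adjusted p = 0.381) at 24 h. Ggps1, which makes geranylgeranyl diphosphate for protein prenylation and so leads away from sterols, changed by 0.30 (SE 0.084, adjusted p = 0.00305) in WT and 0.35 (SE 0.12, adjusted p = 0.0138) in KO at 24 h. With library totals alone these Ggps1 values were -0.0054 and 0.043, and the calls at 24 h were lost without WT replicate 3 (adjusted p = 0.0539) and without KO replicate 1 or 3 (adjusted p = 0.0860 and 0.0624). Pmvk, phosphomevalonate kinase, was not called against 0 h at any time in either genotype, with WT log2 changes from -0.22 at 3 h to 0.18 at 6 h.

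From squalene to cholesterol, 10 of the 11 genes were lower at 24 h in each genotype, all but Tm7sf2, with a median log2 change of -1.26 in WT and -1.41 in KO. Their summed level in WT went from 1586 ± 123 CPM at 0 h to 1377 ± 123 CPM at 6 h and 609 ± 49.6 CPM at 24 h, and in KO from 1541 ± 50.01 CPM to 1243 ± 75.4 CPM and 530.2 ± 52.6 CPM.

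Cyp51, the lanosterol demethylase (ENSMUSG00000001467), fell furthest of these. The WT libraries read 391, 353, 425 and 397 CPM at 0 h, 341, 319.9, 338 and 333 at 3 h and 335, 325, 351 and 370.0 at 6 h. They read 247, 192, 233 and 272 at 12 h and 84.1, 64.9, 86.0 and 81.5 at 24 h. The ranges at 0 and 6 h overlapped, while every library at 12 and 24 h lay below both. The KO libraries read 342, 373, 386 and 398 CPM at 0 h, 288, 323, 316 and 314 at 3 h and 316, 355, 312 and 254 at 6 h. They read 178, 212, 177 and 181 at 12 h and 47.6, 64.6, 55.3 and 75.6 at 24 h. The log2 change in WT was -0.19 (SE 0.088, adjusted p = 0.0621) at 6 h, -0.73 (SE 0.089, adjusted p = 5.97e-08) at 12 h and -2.31 (SE 0.10, adjusted p = 3.53e-17) at 24 h. In KO at 24 h it was -2.62 (SE 0.12, adjusted p = 1.08e-15).

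Msmo1, the sterol methyl oxidase that acts after Cyp51, was lower at 3, 12 and 24 h in WT. WT libraries held 397, 326, 408 and 428 CPM at 0 h, 294, 249, 283 and 315 at 3 h and 331, 309, 348 and 392 at 6 h. They read 355, 255, 327 and 365 at 12 h and 209, 168, 172 and 180.1 at 24 h. The 0 h range was above all values at 3 h and at 24 h and overlapped those at 6 and 12 h. KO libraries held 368, 378, 378 and 392 CPM at 0 h, 270.2, 302, 285 and 276 at 3 h and 302, 331, 337 and 309 at 6 h. They read 303, 304, 286 and 291 at 12 h and 146, 163, 155 and 166 at 24 h. In KO every library after LPS lay below all those at 0 h. The WT log2 change was -0.45 (SE 0.11, adjusted p = 8.00e-04) at 3 h, -0.26 (SE 0.11, adjusted p = 0.0305) at 12 h and -1.10 (SE 0.11, adjusted p = 2.41e-09) at 24 h. The 12 h call was lost with DESeq2 and with RLE factors (adjusted p = 0.0895 and 0.0816) and without WT replicate 2 or 3 (adjusted p = 0.0513 and 0.15).

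Among the other sterol enzymes, Sqle, the squalene epoxidase that is a control point of the pathway, was called lower at every time in both genotypes, from 244 ± 20.7 CPM (SD, n = 4) in WT at 0 h to 59.8 ± 5.34 CPM at 24 h, a log2 change of -2.03 (SE 0.094). Lss, the lanosterol synthase, was also lower at every time, with -0.66 at 3 h and -1.24 at 24 h in WT. Fdft1, squalene synthase, was lower at 3 h (-0.39, SE 0.11), higher at 6 h (0.31, SE 0.11) and lower at 24 h (-1.26, SE 0.12) in WT. The 6 h rise of Fdft1 was not called in KO (adjusted p = 0.0956), was not called in WT without WT replicate 4 (adjusted p = 0.130), and was -0.20 with library totals alone. Sc5d, the sterol desaturase, changed by -1.34 and Hsd17b7, the ketoreductase of the demethylation steps, by -1.57 in WT at 24 h. Ebp, the sterol isomerase, and Nsdhl, the dehydrogenase, changed less, by -0.32 and -0.63; the Ebp call was lost without WT replicate 3 (adjusted p = 0.0851) and, in KO, without KO replicate 2 or 3 (adjusted p = 0.0955 and 0.0716). Dhcr7, dehydrocholesterol reductase, was already down to 4.85 ± 1.42 CPM at 6 h from 17.4 ± 1.18 CPM at 0 h, a log2 change of -1.85 (SE 0.24), and stood at 6.88 ± 2.09 CPM at 24 h. Tm7sf2, a sterol reductase, was not called at any time, with log2 changes from -0.25 to 0.25 in WT and down to -0.31 in KO.

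**Figure D2:**
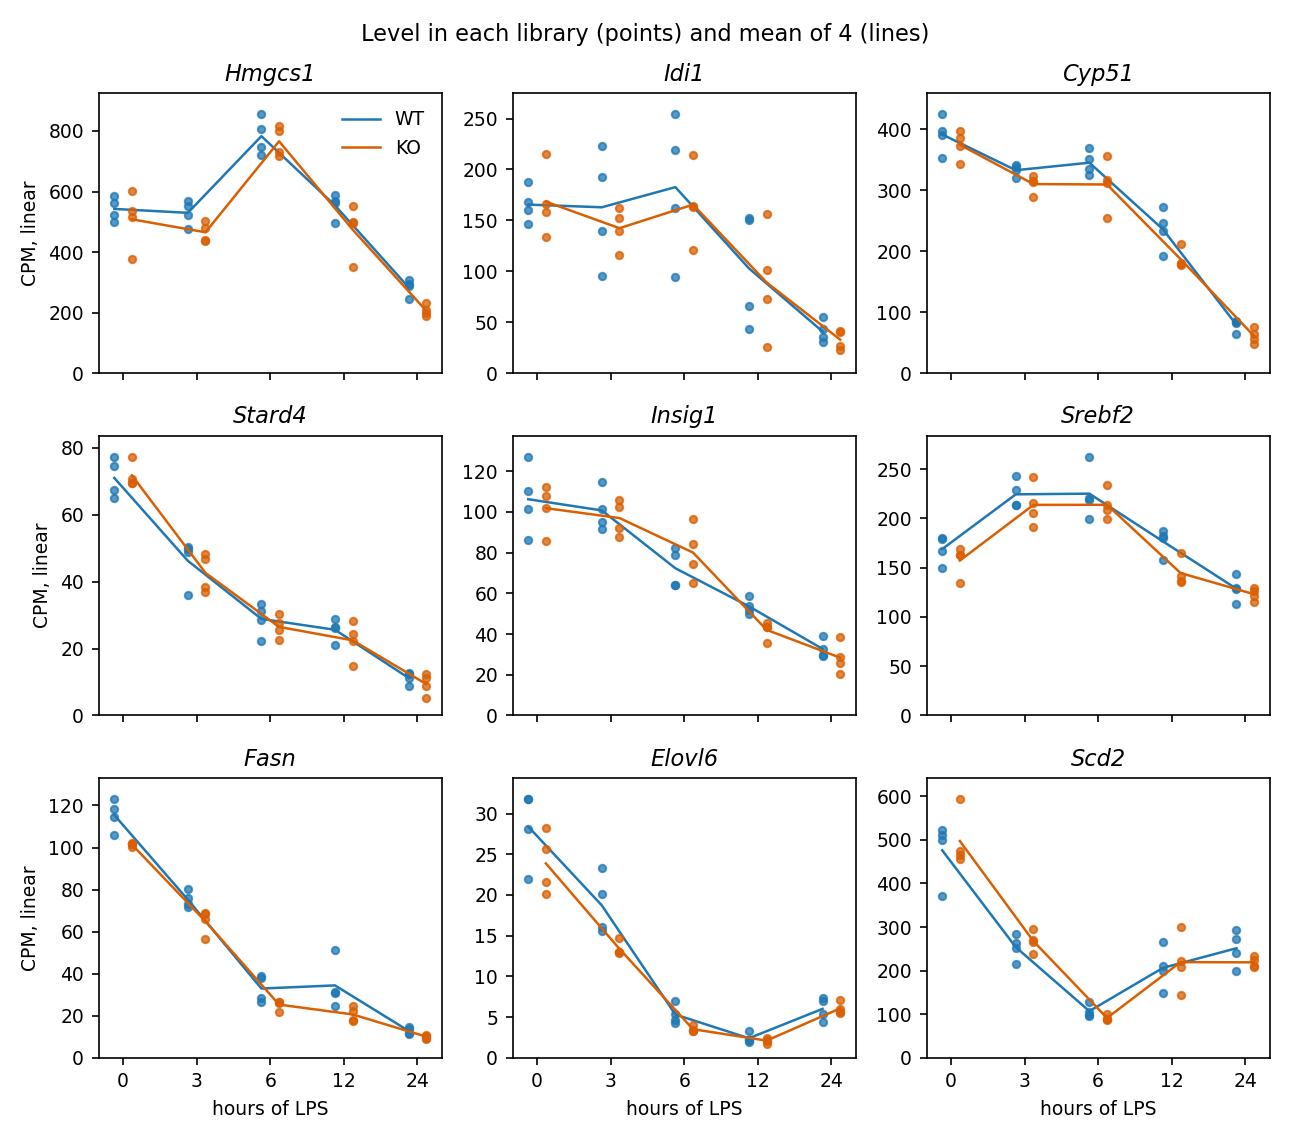
Level (CPM, linear axes from 0) in each library (points, 4 per genotype and time) and group mean (lines) of 9 members over 0, 3, 6, 12 and 24 h of LPS, WT in blue and KO in orange. Hmgcs1 peaks at 6 h, Cyp51 and Idi1 are lowest at 24 h, Fasn and Stard4 lie below their 0 h values at every later time, and Scd2 is lowest at 6 h.

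The SREBP control genes did not move as 1 block. The transcript of Srebf2, whose protein drives sterol genes, read 180.0, 167, 179 and 150.0 CPM in WT at 0 h, 243, 213, 228 and 213 at 3 h and 199, 218, 263 and 221 at 6 h. They read 182, 179.7, 158 and 187 at 12 h and 129, 114, 129 and 143 at 24 h. The values at 3 and 6 h were all above those at 0 h, and those at 24 h were all below. Values in KO were 134, 163, 169 and 163 CPM at 0 h, 191, 243, 216 and 206 at 3 h and 200.0, 234, 213 and 208 at 6 h. They read 142, 137, 165 and 135 at 12 h and 115, 129.6, 121 and 127 at 24 h. The WT log2 change was 0.41 (SE 0.085, adjusted p = 2.27e-04) at 3 h, 0.41 (SE 0.086, adjusted p = 1.70e-04) at 6 h and -0.40 (SE 0.087, adjusted p = 2.54e-04) at 24 h. With library totals alone it was 0.048 at 3 h and -0.10 at 6 h (adjusted p = 0.613 and 0.259), and was not called at either time.

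Scap, the escort of SREBPs, was higher at 3 h (0.51, SE 0.10) and lower at 12 h (-0.47, SE 0.11) and 24 h (-1.07, SE 0.12) in WT; with library totals alone the 3 h value was 0.16 and was not called. Srebf1, whose protein drives fatty acid genes, was lower at 3 h (-0.44, SE 0.15) and 6 h (-0.59, SE 0.16) in WT and was back to -0.027 at 24 h. The Srebf1 call at 3 h was lost without WT replicate 1, 2 or 3 (adjusted p = 0.0792, 0.0544 and 0.0584). At 24 h 4 of the 5 genes were lower in each genotype, all but Srebf1.

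Insig1, a sterol sensor of the endoplasmic reticulum and itself an SREBP target, read 101, 86.0, 127 and 110.5 CPM in WT at 0 h, 115, 91.8, 101 and 94.9 at 3 h and 64.2, 79.0, 82.0 and 64.0 at 6 h. They read 53.9, 49.9, 52.00 and 58.5 at 12 h and 38.96, 29.4, 29.9 and 32.5 at 24 h, with no overlap between 0 h and any time from 6 h on. The 4 KO values were 112, 102, 85.7 and 108 CPM at 0 h, 92.3, 106, 87.5 and 102 at 3 h and 84.0, 65.0, 74.3 and 96.6 at 6 h. They read 43.6, 35.7, 43.6 and 45.3 at 12 h and 25.7, 28.6, 20.5 and 38.7 at 24 h, and there the values at 0 and 6 h overlapped. The log2 change at 24 h was -1.71 (SE 0.12, adjusted p = 1.57e-12) in WT and -1.84 (SE 0.15, adjusted p = 8.32e-11) in KO.

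Stard4, a cytosolic carrier of cholesterol (ENSMUSG00000024378), was called lower at every time in both genotypes. Values in WT were 74.4, 67.3, 77.3 and 64.8 CPM at 0 h, 50.2, 48.9, 49.9 and 35.8 at 3 h and 33.4, 28.5, 31.1 and 22.3 at 6 h. They read 26.4, 20.9, 28.9 and 26.1 at 12 h and 12.6, 11.1, 12.4 and 8.75 at 24 h. Every library after LPS was below every library at 0 h. The corresponding KO values were 70.7, 69.4, 69.5 and 77.3 CPM at 0 h, 38.2, 48.3, 36.9 and 46.8 at 3 h and 22.5, 27.5, 25.5 and 30.4 at 6 h. They read 24.4, 22.3, 14.8 and 28.3 at 12 h and 8.71, 11.3, 5.27 and 12.3 at 24 h. The log2 change at 24 h was -2.65 (SE 0.14, adjusted p = 4.92e-15) in WT and -2.92 (SE 0.18, adjusted p = 1.01e-12) in KO.

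Most of the fatty acid genes were already lower at 6 h. In WT, 8 of the 9 were lower at 6 h, all but Acaca, and all 9 at 24 h. In KO, 8 were lower at 6 h, all but Scd1, and all 9 at 12 and 24 h. The KO calls of Acly and Acaca at 6 h and of Acaca at 12 h were lost with DESeq2, with RLE factors and without the filter. Their median log2 change in WT was -0.82 at 6 h, -1.21 at 12 h and -0.92 at 24 h, whereas that of the genes from squalene to cholesterol was -0.18, -0.32 and -1.26. Their summed level in WT was 1207 ± 132 CPM at 0 h, 538 ± 23.5 CPM at 6 h and 654 ± 81.4 CPM at 24 h. In KO it was 1248 ± 84.7 CPM, 534 ± 7.75 CPM and 599 ± 58.8 CPM. The sum was lowest at 6 h of these 3 times, but it leans on Scd2, the most abundant of the 9. By gene, the lowest mean was at 6 h only for Scd2 and Fads1 in both genotypes. It was at 12 h for Elovl6 and Elovl5, and at 24 h for Fasn, Scd1, Acly and Acaca. Fads2 was lowest at 12 h in WT and at 24 h in KO.

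Fasn, the fatty acid synthase (ENSMUSG00000025153), showed the largest fall of the 33 members at 24 h. The 4 WT values were 114, 106, 118 and 123 CPM at 0 h, 75.8, 71.7, 80.1 and 73.3 at 3 h and 26.5, 28.3, 38.1 and 38.9 at 6 h. They read 30.7, 24.7, 31.1 and 51.3 at 12 h and 11.6, 11.1, 13.8 and 14.7 at 24 h. The ranges at 0, 3, 6 and 24 h were all separate, and those at 6 and 12 h overlapped. Levels in KO stood at 102, 102, 100.4 and 102 CPM at 0 h, 56.4, 68.3, 68.8 and 66.0 at 3 h and 26.3, 21.8, 26.4 and 26.8 at 6 h. They read 18.2, 17.6, 22.1 and 24.7 at 12 h and 11.03, 9.54, 9.11 and 10.6 at 24 h. The log2 change at 24 h was -3.16 (SE 0.16, adjusted p = 6.08e-14) in WT and -3.32 (SE 0.11, adjusted p = 3.90e-18) in KO.

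Elovl6, which elongates the palmitate made by Fasn (ENSMUSG00000041220), had the largest change of any member at a single time, at 12 h. Its WT values were 31.8, 21.9, 31.7 and 28.1 CPM at 0 h, 20.1, 15.5, 16.03 and 23.3 at 3 h and 5.35, 4.59, 7.01 and 4.32 at 6 h. They read 3.23, 2.17, 1.96 and 2.24 at 12 h and 7.36, 5.35, 6.98 and 4.37 at 24 h. The values at 24 h were all above those at 12 h and all far below those at 0 h. For KO the values were 21.6, 25.7, 20.1 and 28.2 CPM at 0 h, 12.98, 14.7, 12.8 and 13.01 at 3 h and 3.37, 3.35, 4.02 and 3.31 at 6 h. They read 2.24, 2.43, 1.75 and 2.04 at 12 h and 6.00, 5.55, 5.67 and 7.07 at 24 h. The log2 change at 12 h was -3.59 (SE 0.21, adjusted p = 5.58e-14) in WT and -3.49 (SE 0.18, adjusted p = 6.65e-15) in KO, and rested on 7 to 12 counts per library at that time.

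Scd2, a stearoyl-CoA desaturase and the most abundant fatty acid gene here, fell and then partly returned. Levels in WT stood at 500.4, 370.1, 510.1 and 523 CPM at 0 h, 284, 214, 264 and 253 at 3 h and 104, 96.3, 128 and 99.3 at 6 h. They read 266, 149, 211 and 198 at 12 h and 293, 200.2, 272 and 239.7 at 24 h. All values at 24 h lay between those at 6 h and those at 0 h. The KO replicates gave 594, 455, 465 and 475 CPM at 0 h, 266, 296, 238 and 270.0 at 3 h and 88.7, 86.4, 100.2 and 90.0 at 6 h. They read 209, 223, 145 and 301 at 12 h and 210.0, 235, 208 and 223 at 24 h. The WT log2 change was -2.16 (SE 0.16, adjusted p = 4.49e-10) at 6 h and -0.92 (SE 0.15, adjusted p = 2.60e-05) at 24 h. Scd2 was higher at 24 h than at 6 h in WT, whereas Scd1, its close relative, was lower. With library totals alone the Scd1 change from 6 h to 24 h in WT was -0.58 (adjusted p = 0.00619, edgeR). The Scd1 log2 change from 0 h was -0.53 (SE 0.16) at 6 h and -1.32 (SE 0.17) at 24 h, and the 6 h call was lost without WT replicate 1 or 4 (adjusted p = 0.0747 and 0.0667).

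Elovl5, which elongates polyunsaturated fatty acids, was lower from 6 h on and lowest at 12 h. For WT the values were 198, 169, 197 and 209 CPM at 0 h, 218, 188, 189.5 and 214 at 3 h and 163, 146, 152 and 144 at 6 h. They read 136, 94.5, 110.0 and 128 at 12 h and 165, 127, 168 and 168 at 24 h, with every value at 6, 12 and 24 h below the range at 0 h. The KO libraries read 197, 197, 206 and 203 CPM at 0 h, 203, 239, 209 and 204 at 3 h and 140.4, 153, 153 and 127 at 6 h. They read 99.2, 110.4, 98.2 and 118 at 12 h and 132, 156, 139.9 and 166 at 24 h. The WT log2 change was -0.73 (SE 0.10, adjusted p = 5.70e-07) at 12 h and -0.30 (SE 0.10, adjusted p = 0.00890) at 24 h.

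Of the 2 desaturases of polyunsaturated fatty acids, Fads1 was at 111 ± 5.67 CPM (SD, n = 4) in WT at 0 h, 37.9 ± 3.79 CPM at 6 h and 72.4 ± 11.7 CPM at 24 h, while Fads2 was at 87.7 ± 10.9 CPM, 49.6 ± 6.85 CPM and 33.5 ± 6.04 CPM. Their WT log2 changes at 24 h were -0.61 (SE 0.10) and -1.38 (SE 0.12). The suppliers of substrate fell less than most: Acly, which makes cytosolic acetyl-CoA from citrate, with a log2 change of -0.45 (SE 0.081), and Acaca, which makes malonyl-CoA, with -0.46 (SE 0.10) at 24 h.

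The change from 6 h to 24 h was tested directly. In WT, 21 members were lower at 24 h than at 6 h and 4 were higher, where 31.2% and 31.7% of all genes tested were called; in KO, 22 were lower and 5 higher, where 29.3% and 31.9% were called. The 4 that were higher at 24 h than at 6 h in WT were Mvd (0.58), Srebf1 (0.56), Scd2 (1.24) and Fads1 (0.94), each of them lower than 0 h at 6 h. The Mvd call was lost without WT replicate 1 (adjusted p = 0.115), and in KO that of Srebf1 was lost without KO replicate 1 or 2 (adjusted p = 0.0726 and 0.116). The same 4 were higher in KO, where Elovl6 joined them. In WT the Elovl6 value was 0.21 (SE 0.23, adjusted p = 0.439). With library totals alone the Elovl6 values were 1.06 in KO and 0.41 in WT (adjusted p = 3.40e-05 and 0.103, edgeR). The difference between the genotypes in this comparison was not tested. A further 8 members in WT were not called at 6 h but were lower at 24 h: Idi1, Cyp51, Msmo1, Hsd17b7, Ebp, Sc5d, Scap and Acaca. Hmgcs1, Fdft1 and Srebf2 were called higher at 6 h and lower at 24 h in WT, a rise that was not called with library totals alone. The remaining 17 that were lower at 24 h were lower at 6 h as well. The lowest group mean was at 24 h for 21 members in WT and 23 in KO, and it fell at the same time in both genotypes for 29 of the 33.

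**Figure D3:**
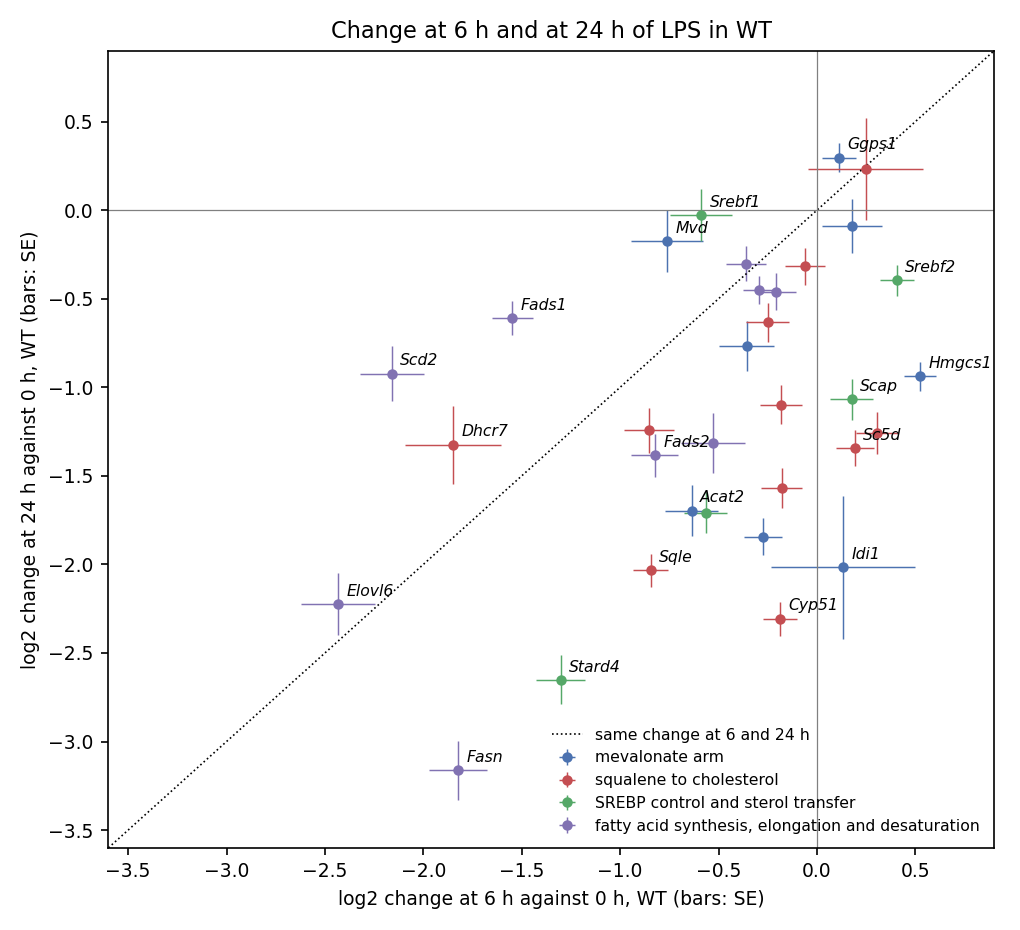
Log2 change from 0 h in WT at 6 h (horizontal) and at 24 h (vertical) of the 33 members, coloured by role group, with bars of 1 SE. Fads1, Scd2, Srebf1 and Mvd lie above the dotted line of equal change, and Cyp51, Idi1, Fasn and Stard4 lie well below it.

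The genotype made no difference that passed the test. In KO against WT, 0 of the 33 members were called at 0, 3, 6, 12 or 24 h by edgeR's quasi-likelihood test, where 0%, 0.689%, 1.01%, 0.0464% and 0.0809% of all genes tested were called (Elovl6 was below the filter at 12 h). At an unadjusted p below 0.05 the members numbered 3, 5, 8, 7 and 4, and DESeq2 called 0 at 0, 3, 6 and 12 h and 1 at 24 h. That 1 was Hmgcs1, with a log2 difference of -0.47 (SE 0.088, adjusted p = 0.0704) in edgeR and an adjusted p of 7.44e-04 in DESeq2. Its 4 KO values at 24 h, listed above, lay below its 4 WT values, and without KO replicate 4 the adjusted p was 0.0478 in edgeR.

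The members nevertheless lay more often below 0 than above it. Below 0 were 20 of 33 at 0 h, 24 at 3 h, 27 at 6 h, 26 of 32 at 12 h and 30 of 33 at 24 h, while 49.5%, 48.3%, 52.1%, 51.0% and 50% of all genes tested lay below 0. The median log2 differences of the members were -0.06, -0.09, -0.15, -0.20 and -0.15, against medians of all genes between -0.008 and 0.006. These genes are not independent of each other, and no test was made over the list. At 24 h all 11 genes from squalene to cholesterol and all 5 of SREBP control lay below 0, with the largest differences from squalene to cholesterol at -0.39 for Cyp51 (95% interval -0.67 to -0.10, adjusted p = 0.451). The fatty acid genes were mixed at 0 h, with 2 of 9 below 0, and 7 of 9 lay below 0 at 24 h.

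Fasn had the largest single difference, -0.76 (SE 0.21, adjusted p = 0.310) at 12 h, with a 95% interval of -1.21 to -0.30. It lay below 0 at every time, with -0.20 at 0 h, -0.21 at 3 h, -0.38 at 6 h and -0.35 at 24 h, none of them called. Sc5d differed by -0.44 (SE 0.12, adjusted p = 0.268) at 12 h. One fit of all 40 libraries called both at 12 h (adjusted p = 0.00404 for Fasn and 0.0179 for Sc5d). Without a filter on low counts, 1 member was called at 3 h (Tm7sf2, higher), 2 at 6 h (Scd1, higher, and Mvd, lower), 2 at 12 h (Fasn and Sc5d, lower) and 2 at 24 h (Hmgcs1 and Cyp51, lower).

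Counting members whose 4 KO values did not overlap the 4 WT values, 2 were lower at 0 h (Dhcr7 and Fasn), 3 at 3 h (Sc5d, Fasn and Elovl6), 1 at 6 h (Elovl6), 4 at 12 h (Sqle, Sc5d, Insig1 and Fasn) and 4 at 24 h (Hmgcs1, Mvk, Msmo1 and Fasn). Among all genes tested, 2.38%, 2.96%, 2.75%, 1.74% and 1.98% were lower without overlap at these times. Higher without overlap were 1 member at 0 h (Tm7sf2) and 0 at 3, 6, 12 and 24 h, where 2.63%, 3.26%, 5.07%, 3.28% and 2.43% of all genes were. The summed level of 8 neutrophil markers was lower in KO than in WT at 24 h. Of the 8, 3 reached a mean of 1 CPM in WT and 2 in KO (S100a8 and S100a9) at that time. The sum lay between 32.9 and 45.1 CPM over the WT libraries and between 18.4 and 27.3 CPM over those of KO. Most of it was S100a8 and S100a9. Mpo, a low marker of the list, did not follow at 6 h, with means of 1.16 CPM in WT and 1.19 CPM in KO. Ltf, Elane and Retnlg had no count in KO at 24 h, and Retnlg none in WT. The ranges of the sum were also separate at 3 and 6 h and overlapped at 0 and 12 h. Lyz2, the locus from which LysM-Cre is expressed, was called lower in KO at 3, 6 and 24 h, with a log2 difference of -0.59 (SE 0.10, adjusted p = 0.0387) at 24 h. Their part in the values above was not tested.

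**Figure D4:**
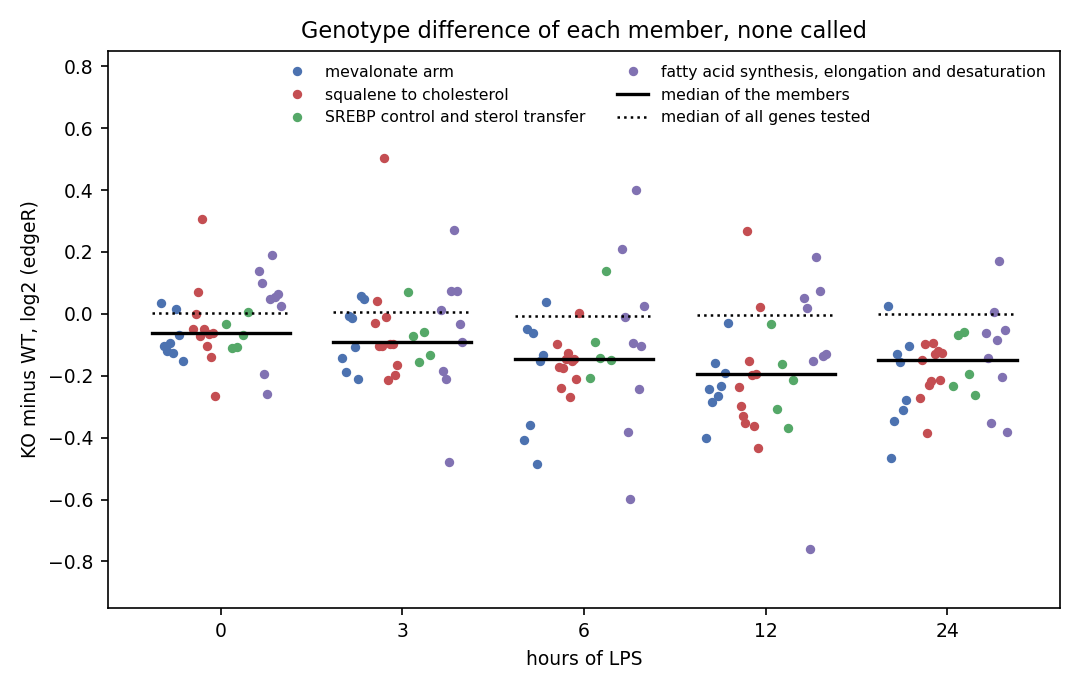
Log2 difference of KO minus WT (edgeR) for each member at 0, 3, 6, 12 and 24 h of LPS, coloured by role group, with the median of the members (solid line) and of all genes tested (dotted line). The members' medians run from -0.06 at 0 h to -0.20 at 12 h, the medians of all genes lie near 0, and no member was called.

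Nor was the response to LPS found to differ between genotypes. The interaction of genotype and time called 0 members at 3, 6, 12 and 24 h in edgeR and 0 in DESeq2, where 0%, 0%, 0% and 0.00818% of all genes were called; at an unadjusted p below 0.05 there were 1, 1, 4 and 1. They were Acaca at 3 h and Acat2 at 6 h. At 12 h these were Sqle, Lss, Sc5d and Fasn, all with values below 0, the largest for Fasn at -0.56 (SE 0.22, adjusted p = 1.000). At 24 h it was Hmgcs1, at -0.37 (SE 0.16, adjusted p = 1.000), with a 95% interval of -0.69 to -0.044. An adjusted p near 1 does not show that the 2 responses were alike.

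Genes beside these on the same pathways were taken from lists of other sterol genes, other fatty acid genes and genes of sterol efflux and its control. Of 8 other sterol genes, 4 were lower and 3 higher at 24 h in WT, with a median log2 change of -0.03. Lbr, which has a sterol reductase domain, changed by -2.55 (SE 0.14), while Insig2, the relative of Insig1, was higher at 0.77 (SE 0.081). Of 19 other fatty acid genes tested, 7 were lower and 6 higher at 24 h in WT, with a median of -0.07. Acss2, which makes acetyl-CoA from acetate, was higher at 1.96 (SE 0.14), and so was Acsl1, an acyl-CoA synthetase, at 3.61 (SE 0.11). Acsl3, another such synthetase, was lower at -1.82 (SE 0.12), and Lpin1, a phosphatidate phosphatase, was lower at -2.52 (SE 0.17). Acsl1 was also the 1 gene of these 3 lists called between genotypes. It was higher in KO at 3 h (adjusted p = 0.0434, edgeR), with means of 159 CPM in KO and 125 CPM in WT.

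Of 12 genes of sterol efflux, oxysterols and LXR, 4 were higher and 1 lower at 24 h in WT, with a median of -0.006. Nr1h3, which encodes LXR alpha, was higher at 2.77 (SE 0.12), Npc2, a lysosomal sterol carrier, at 1.297 (SE 0.078), and Abcg1, a sterol exporter, at 1.29 (SE 0.12). Abca1, the other exporter, was at -0.20 (SE 0.14, adjusted p = 0.204). Ch25h, which makes a hydroxylated sterol known to hold back SREBPs, changed by 4.26 (SE 0.45) at 3 h and 4.21 (SE 0.45) at 6 h, both called, and by -1.32 (SE 0.76, adjusted p = 0.133) at 24 h. It was at 6.06 ± 0.872 CPM in WT at 0 h, 116 ± 20.8 CPM at 3 h and 2.47 ± 1.02 CPM at 24 h.

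The course of Fasn, the member with the largest fall, was compared with 6391 named genes outside the list over the 10 group means (log2 CPM, leaving out genes whose mean was under 20 CPM). The closest were Srpk1 (Pearson's r 0.990), Arglu1 (0.984), Riox1 (0.979), Hnrnpu (0.978) and Washc5 (0.977). Among the members, the closest were Stard4 (0.983), Sqle (0.975) and Insig1 (0.931). These correlations describe 10 means that share libraries and are given without a test.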

How the data were processed

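RNA from 40 macrophage cultures was sequenced as 3′ tags (QuantSeq FWD, per the labels' protocols). The values the authors deposited are raw expected counts for each Ensembl identifier. Build GRCm39, RSEM 1.3.3, UMI-tools 1.1.2, cutadapt 3.7, FastQC 0.11.9 and STAR 2.7.10a appear in the submitters' processing notes; settings, strand handling and annotation were not given in the sources used here. All values were whole numbers, so rounding changed nothing. Symbols came from GENCODE vM21 for 52029 of 57010 identifiers.

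Groups followed the labels. Counts were fitted with edgeR 4.0.16 in R 4.3.3 (TMM, filterByExpr with a minimum count of 10, prior count 0.125, robust quasi-likelihood F-test, two-sided, Benjamini-Hochberg over all genes tested, threshold 0.05): 20 libraries of a genotype for LPS, 8 of a time for genotype, 16 for each interaction. SE is the absolute log2 change divided by the square root of F, and 95% intervals use the test's degrees of freedom. CPM used TMM factors over all libraries, and counts bound precision by counting error. The alternatives were DESeq2 1.42.0, RLE factors, no filter, 1 fit of all libraries, female libraries only (without KO replicate 3 and WT replicate 4, by Xist and Y-linked counts known from earlier work on these data), a replicate block, leaving out each replicate, and, chosen after seeing the data, library totals only. The script was tested on simulated data. P-values measure the spread between these replicates, and whether they were separate animals is not stated beyond "biological".

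The members and lists were chosen with earlier results of these data known. All 33 members are named; values in every library are given for the 4 members with the largest WT change and the 2 with the highest 0 h level of each role group, and other pathway genes where called with a log2 change of at least 1 at 24 h in WT or between genotypes. Insig2, Abca1 and Ch25h were named after their values were seen. Of the lists, 4 genes are not reported here, and Mlxipl was below the filter. Likeness left out genes with provisional names. Exons of 9 members overlap a gene on the opposite strand in GENCODE vM21 (Hmgcs1, Idi1, Lss, Cyp51, Fdft1, Srebf1, Scap, Ggps1 and Elovl6) and those of 4 overlap one on the same strand (Fdps, Tm7sf2, Srebf1 and Scd2), so their counts are less certain. The 60 replicate pairs within groups differed by more than sampling noise (chi-square per degree of freedom 2.34 to 18.9), so all were kept apart.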

Additional observations from a re-analysis of the deposited data

Results flagged for a closer look

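Among the 11 members given library by library, 10 of 110 groups of 4 held a library whose gap to the nearest of the others took up more of the group's range than Dixon's 95% critical value, and chance marks about 1 in 20 groups. High values stood apart for Elovl6 in KO replicate 2 at 3 h (14.7 CPM) and KO replicate 3 at 6 h (4.02 CPM), Stard4 in KO replicate 4 at 0 h (77.3 CPM), Cyp51 in KO replicate 2 at 12 h (212 CPM), Scd2 in KO replicate 1 at 0 h (594 CPM) and Elovl5 in KO replicate 2 at 3 h (239 CPM). Low values stood apart for Fasn in KO replicate 2 at 6 h (21.8 CPM), Stard4 in WT replicate 4 at 3 h (35.8 CPM), Scd2 in WT replicate 2 at 0 h (370.1 CPM) and Elovl5 in WT replicate 2 at 24 h (127 CPM). KO replicate 2 held 4 of the 10, and WT replicate 2 held 2.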

How the results depend on the processing

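The 28 members lower at 24 h in each genotype were 28 in every alternative with TMM or size factors over all replicates, and 30 (WT) and 32 (KO) with library totals only, an alternative chosen after seeing the data. Leaving out a replicate gave 27 or 28 in each. With library totals only, members higher were 0 at 3, 6, 12 and 24 h in both genotypes, 7 (WT) and 8 (KO) at 24 h against 6 h, and members lower at 3 h were 29 in WT and 28 in KO. Among LPS values called on at least 1 of the 2 scales, 24 turned direction; in WT these were Ebp -0.29 and Elovl5 -0.29 at 3 h, Ggps1 -0.40, Fdft1 -0.20, Sc5d -0.31, Srebf2 -0.10 and Scap -0.33 at 6 h, Hmgcs1 -0.37, Ggps1 -0.17, Srebf1 -0.34 and Srebf2 -0.35 at 12 h, and Ggps1 -0.0054 at 24 h. In KO they were Ebp -0.25 and Elovl5 -0.26 at 3 h, Pmvk -0.35, Ggps1 -0.26, Fdft1 -0.30, Sc5d -0.51, Srebf2 -0.13 and Scap -0.41 at 6 h, Pmvk -0.38, Ggps1 -0.073 and Srebf1 -0.37 at 12 h, and Ebp 0.026 at 24 h against 6 h. A further 11 LPS values, called on neither scale, turned as well: in WT Pmvk -0.33, Idi1 -0.38 and Tm7sf2 -0.26 at 6 h, Pmvk -0.27 at 12 h and Tm7sf2 -0.068 at 24 h, in KO Ggps1 -0.23 at 3 h, and at 24 h against 6 h Tm7sf2 0.19 and Acly 0.049 in WT and Lss 0.0075, Tm7sf2 0.16 and Nsdhl 0.048 in KO. The scaling itself moves all genes together by the shift given in the report.

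Of the other counts, members higher in WT at 12 h were 0 without a filter on low counts and 0 with female libraries only, in KO at 6 h 5 with RLE size factors, and in KO at 12 and 24 h 0 with female libraries only. In KO against WT without the filter, members higher were 1 at 3 h (Tm7sf2) and 1 at 6 h (Scd1), and members lower were 1 at 6 h (Mvd), 2 at 12 h (Fasn and Sc5d) and 2 at 24 h (Hmgcs1 and Cyp51). One fit of all 40 libraries gave 2 lower at 12 h, and DESeq2 gave 1 lower at 24 h (Hmgcs1). Leaving out each replicate gave 0 to 1 members higher at 12 and 24 h in WT and in KO (Ggps1), 0 to 1 higher at 3 h in KO against WT (Tm7sf2, without KO replicate 1) and 0 to 1 lower at 24 h (Hmgcs1, without KO replicate 4). Single members called against 0 h lost the call 18 times with DESeq2, 18 with RLE factors, 8 without the filter and 6 in 1 fit of all libraries. They lost it 16 times with female libraries only, 14 with library totals only and 88 times over all fits that left out a replicate. At 24 h against 6 h, calls were lost 20 times over the fits that left out a replicate and 10 with library totals only. There 5 were lost with female libraries only, 5 without the filter and 1 with DESeq2. The cause of these moves was not tested.

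With the replicate number as a block (edgeR), members lower at 3, 6, 12 and 24 h were 18, 21, 23 and 28 in WT and 18, 23, 27 and 28 in KO. The block added 12 single calls against 0 h and 1 at 24 h against 6 h and lost 0, and no count moved by over 1.5 times. Same-numbered libraries of a genotype at different times had r over 0.1 in 70 of 80 pairs (median 0.29, lowest -0.13, against a median of -0.10 for different numbers), and 38 of 40 libraries were closest to their own number. Sex-linked RNA followed the number as well, since KO replicate 3 and WT replicate 4 stood apart at all times. Most of these values are those of numbers that pair samples, though not every pair passed 0.1. Because the labels state no shared animal, the main tests were left unpaired, and the block counts above show the paired reading. Between genotypes at 1 time, 3 of 20 same-numbered pairs passed it. Depth limits low members most, such as Elovl6 at 12 h with 7 to 12 counts per library.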
